A study of Mus musculus with 3 samples.

Results

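The immediate early response genes Fos, Fosb, Jun, Junb, Jund, Egr1, Atf3, Ier2, Nr4a1 and Nr4a3 were followed across the cell classes of the mouse heart. These 10 genes were taken by name from the 32285 genes of the feature list, and all 10 were found there. The data were single-nucleus RNA counts from 3 libraries of heart tissue taken 2 weeks after surgery, with 1 library per group. MI-DAPA was heart after myocardial infarction with dapagliflozin, an inhibitor of the kidney glucose cotransporter. MI-NS was heart after myocardial infarction with NS, which the labels do not expand, and Sham-NS was heart after sham surgery with NS. The labels give no strain, age, sex, dose, hour of collection or region of the heart, and do not say how many animals went into a library.

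Immediate early genes are switched on within minutes by growth factors, stretch, neurohormones or stress, before any new protein is made. Kinase cascades act on factors already bound at their promoters, chiefly the serum response factor with its partners and the cAMP response element binding protein CREB. Fos and Jun family proteins pair to form the AP-1 transcription factor, Egr1 is a zinc finger factor, Atf3 a stress-induced factor of the ATF family, Nr4a1 and Nr4a3 orphan nuclear receptors, and Ier2 a small nuclear protein. In the heart these genes are known to respond to pressure load and injury, and also to tissue handling, since their RNA accumulates while tissue is taken apart.

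Windows from the RefSeq promoter table (GRCm38.p6) were used for 8 of the 10 genes, all but Egr1 and Ier2. The 250 bases before the start of 4 of them are shown as examples with and without a CREB core, chosen after the values were seen. The Fos, Junb and Nr4a1 levels were higher in MI-NS than Sham-NS in each class with enough UMIs to compare, and Jun in none of them. Over all 9 classes, low counts included, Fos was higher in 7 and lower in 2, Junb and Nr4a1 were higher in 9, and Jun in 1. Capitals mark TGACG, the shorter core of the cAMP response element, on either strand (CGTCA when read on the other), and in Jun the letters TGACATCA, a site known from this promoter. The sequences lie at chr12:85473640-85473889 on the plus strand (Fos), chr8:84978749-84978998 on the minus strand (Junb), chr15:101266596-101266845 on the plus strand (Nr4a1) and chr4:95052223-95052472 on the minus strand (Jun).
Fos: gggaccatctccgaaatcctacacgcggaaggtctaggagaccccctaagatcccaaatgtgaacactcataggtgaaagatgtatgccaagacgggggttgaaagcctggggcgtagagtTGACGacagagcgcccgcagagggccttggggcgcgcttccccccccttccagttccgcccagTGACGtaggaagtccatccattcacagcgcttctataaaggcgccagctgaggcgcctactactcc
Junb: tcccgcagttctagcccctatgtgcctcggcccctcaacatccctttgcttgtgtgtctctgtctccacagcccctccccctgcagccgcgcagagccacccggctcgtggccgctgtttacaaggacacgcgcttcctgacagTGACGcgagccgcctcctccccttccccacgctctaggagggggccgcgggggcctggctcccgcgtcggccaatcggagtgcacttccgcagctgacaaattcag
Nr4a1: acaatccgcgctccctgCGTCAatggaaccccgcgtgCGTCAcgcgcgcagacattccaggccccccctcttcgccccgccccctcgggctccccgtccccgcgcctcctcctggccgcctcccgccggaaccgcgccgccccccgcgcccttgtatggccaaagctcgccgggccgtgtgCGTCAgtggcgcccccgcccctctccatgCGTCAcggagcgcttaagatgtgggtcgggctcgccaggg
Jun: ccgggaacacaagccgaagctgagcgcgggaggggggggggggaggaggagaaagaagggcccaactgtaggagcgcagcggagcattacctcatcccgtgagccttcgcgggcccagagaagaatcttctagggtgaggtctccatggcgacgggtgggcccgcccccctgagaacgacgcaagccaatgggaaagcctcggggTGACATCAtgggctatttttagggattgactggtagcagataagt
In these windows Fos held 2 such cores, at bases 129 to 125 and 66 to 62 before the start, Junb held 1 and Nr4a1 held 4, and Jun held none. The Jund window also held none, and Jund was higher in MI-NS than Sham-NS in its 4 measurable classes. Whether these cores bear on the levels was not tested. Of the 8 promoters used, 6 held TGACG, against 17.8% of all 32851 promoter windows of this length. The full element TGACGTCA (1.55% of windows), the AP-1 site TGANTCA (6.75%) and the CArG box of the serum response factor (1.47%) were in none of the 8, and TGACATCA (2.93%) was in Jun alone. Both strands were searched, the core is contained in the full element, and TGACATCA was added with the Jun sequence in view. Sites more than 250 bases before the start were not searched. The start used for Nr4a1 lies inside the gene as GENCODE vM21 draws it (chr15:101254269-101274795), as does the start used for Atf3 (chr1:191170296-191218039), and the Jund window ends before the GENCODE start of Jund, so other starts of these genes are not covered.

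The libraries held 8871086 UMIs in 6354 barcodes for MI-DAPA, 10113430 in 7725 for MI-NS and 13873275 in 9744 for Sham-NS, where a UMI marks 1 RNA molecule. Filtering kept 5372, 7065 and 8296 nuclei in the same order, with median depths of 831, 851 and 790 UMIs. Median mitochondrial UMIs were 2.42% in MI-DAPA, 1.48% in MI-NS and 3.32% in Sham-NS, and Malat1, a nuclear RNA, made up 5.97%, 9.31% and 5.47% of UMIs. At most 20 barcodes were shared by a pair of libraries. Clusters of nuclei were named from marker genes and are written as "-like", and 9 classes with at least 50 nuclei in each library were compared. Cycling-like nuclei also met this limit, with 96 in MI-DAPA, 146 in MI-NS and 52 in Sham-NS, but were not compared. Vascular endothelial-like nuclei were compared as clusters 1 and 7, because Kit, a mast cell marker, and no vascular marker stood among the leading genes of cluster 7.

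Levels are UMIs of the gene divided by all UMIs of the class and scaled to counts per 1e+06 (CPM), summed over nuclei, with 95% exact Poisson intervals in brackets. Ratios are log2 of CPM ratios, computed after adding 0.5 UMI to either sum, with 95% exact conditional binomial intervals. These intervals cover counting error only. With 1 library per group there is no test, and differences between animals or pieces of tissue cannot be told apart from the groups. A gene was called measurable in a class with at least 50 UMIs over both libraries. A gene can therefore pass through a high level in 1 library alone. Every ratio against Sham-NS uses 1 and the same Sham-NS library and both main comparisons use the same MI-NS library, so a high MI-NS value alone gives opposite signs in them.

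Summed over the 10 genes, the level was higher in MI-NS than Sham-NS in 9 of 9 classes, and lower in MI-DAPA than in MI-NS in 9 of 9. The interval of the ratio left 0 in 8 classes for the first comparison and in 6 for the second. The second turned to 0.25 in fibroblast-like nuclei thinned to 1000 UMIs, and in macrophage-like nuclei to 0.10 at clustering resolution 2.0 and to 0.06 with classes set by marker level. At resolution 2.0 a separate cluster was named monocyte- or dendritic-like, with 105 nuclei in MI-DAPA, 386 in MI-NS and 52 in Sham-NS. The macrophage-like cluster then held 260, 466 and 714. The part of such a difference in make-up in the macrophage-like values was not tested. In smooth muscle-like nuclei the sum was 193 CPM (128 to 279) in MI-DAPA and 565 (448 to 703) in MI-NS, against 182 (125 to 256) in Sham-NS. In endocardial-like nuclei, which line the chambers, it was 259 CPM (156 to 405) in MI-DAPA and 776 (646 to 925) in MI-NS, against 436 (370 to 511) in Sham-NS. In pericyte-like nuclei it was 218 CPM (164 to 286) in MI-DAPA and 399 (315 to 499) in MI-NS, against 216 (171 to 269) in Sham-NS. In these 3 small classes MI-NS stood apart from both other libraries by more than counting error, while the MI-DAPA and Sham-NS intervals overlapped in all 3. Overlap of these intervals does not mean equal levels. In endocardial-like nuclei the log2 ratio of MI-DAPA over Sham-NS was -0.72 (-1.52 to -0.06), below 0 by more than counting error.

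In cardiomyocyte-like nuclei, the heart muscle cells, the sum was 149 CPM (137 to 162) in MI-DAPA and 193 (175 to 212) in MI-NS, against 83.4 (74.7 to 92.8) in Sham-NS. In fibroblast-like nuclei it was 466 CPM (426 to 508) in MI-DAPA and 543 (509 to 579) in MI-NS, against 321 (292 to 353) in Sham-NS. In macrophage-like nuclei it was 496 CPM (409 to 597) in MI-DAPA and 577 (518 to 640) in MI-NS, against 391 (339 to 448) in Sham-NS. MI-DAPA lay between the other libraries in all 3 classes, and its interval overlapped those of both MI-NS and Sham-NS in macrophage-like nuclei. The log2 ratio of MI-DAPA over Sham-NS there was 0.35 (0.0009 to 0.68), just above 0. Vascular endothelial-like cluster 1 had 458 CPM (382 to 545) in MI-DAPA and 720 (616 to 837) in MI-NS, against 362 (326 to 400) in Sham-NS. Cluster 7 had 722 CPM (638 to 814) in MI-DAPA and 837 (753 to 928) in MI-NS, against 414 (308 to 546) in Sham-NS. In lymphatic endothelial-like nuclei the 3 intervals overlapped, at 312 CPM (188 to 486) in MI-DAPA and 389 (291 to 509) in MI-NS, against 313 (205 to 459) in Sham-NS.

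**Figure D1:**
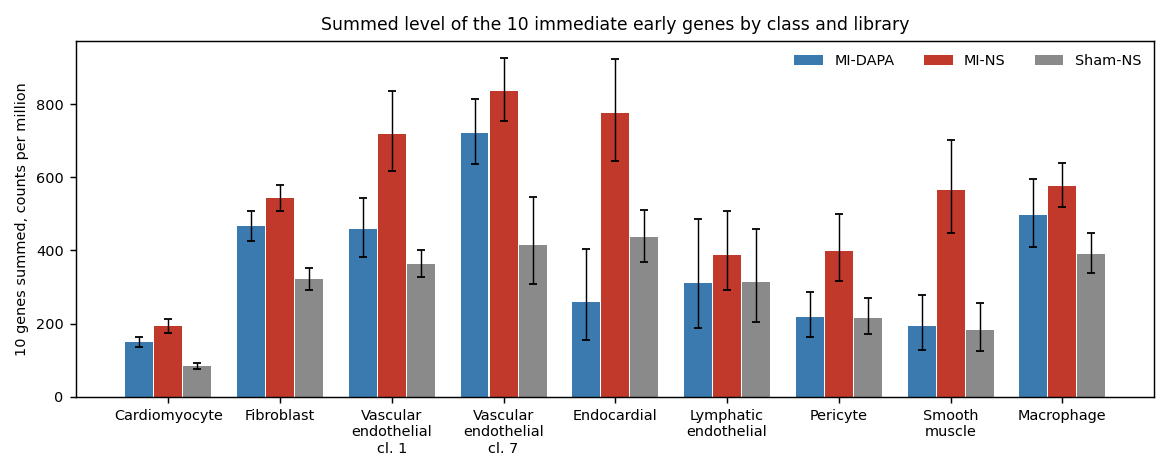
Bars give the level of the 10 genes summed, in CPM, for each class and library, with MI-DAPA, MI-NS and Sham-NS from left to right, and lines give 95% Poisson intervals. The MI-NS bar is the highest in each of the 9 classes, from 193 CPM in cardiomyocyte-like nuclei to 837 CPM in vascular endothelial-like cluster 7.

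As a log2 ratio, the sum in MI-NS over Sham-NS ran from 0.30 (-0.39 to 1.05) in lymphatic endothelial-like nuclei to 1.62 (1.03 to 2.26) in smooth muscle-like nuclei. For MI-DAPA over MI-NS it ran from -1.55 (-2.36 to -0.88) in endocardial-like nuclei to -0.21 in macrophage-like nuclei (-0.54 to 0.09) and in vascular endothelial-like cluster 7 (-0.45 to 0.02). For MI-DAPA over Sham-NS it was 0.84 (0.64 to 1.04) in cardiomyocyte-like, 0.54 (0.35 to 0.72) in fibroblast-like and -0.72 (-1.52 to -0.06) in endocardial-like nuclei. Jun gave 1908 of the members' UMIs in these classes. It was lower in MI-NS than Sham-NS in 8 classes and higher in 1. Leaving it out moved the MI-NS over Sham-NS ratio of the sum farther from 0 in every class. The MI-DAPA over MI-NS ratio also moved farther, except in lymphatic endothelial-like nuclei (-0.30 with Jun, -0.29 without). For MI-DAPA over Sham-NS the endocardial-like ratio moved nearer to 0, to -0.55 (-1.61 to 0.28). Without Jun, cardiomyocyte-like nuclei had 2.12 (1.82 to 2.43) for MI-NS over Sham-NS and -1.14 (-1.39 to -0.89) for MI-DAPA over MI-NS. Fibroblast-like nuclei had 1.14 (0.94 to 1.34) and -0.54 (-0.72 to -0.36) in the same comparisons.

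Clock genes and mitochondrial UMIs differed between the libraries beside these sums. Per2, a clock gene whose RNA cycles over the day, was at 17.9 CPM in MI-DAPA, 15.9 in MI-NS and 169 in Sham-NS in cardiomyocyte-like nuclei, and at 22.8, 14.6 and 434 CPM in fibroblast-like nuclei. Arntl, a clock gene that peaks in antiphase to Per2, was at 12.5, 23.8 and 2.75 CPM in cardiomyocyte-like and at 122, 159 and 6.02 CPM in fibroblast-like nuclei, again for MI-DAPA, MI-NS and Sham-NS. Per1 was at 34.1, 17.3 and 119 CPM and Dbp at 196, 133 and 206 CPM in cardiomyocyte-like nuclei in that order. The labels do not give the hour of collection, and its part in the members' differences was not tested. Of the clock list, 9 of 14 measurable genes were lower in MI-NS than Sham-NS in cardiomyocyte-like nuclei, as were 6 of 8 glucocorticoid targets and 2 of 2 haemoglobin genes. Over all genes of that class, 60.1% were higher in MI-NS. Median mitochondrial UMIs were lowest in MI-NS in each of the 9 classes, for example 0.847% in MI-DAPA, 0.659% in MI-NS and 1.1% in Sham-NS in cardiomyocyte-like nuclei, and their part in the result was not tested.

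Heat shock genes, which handling can also raise, were near evenly split in cardiomyocyte-like nuclei and more often lower in MI-NS than Sham-NS in fibroblast-, macrophage- and pericyte-like nuclei. They were more often lower in endocardial-like nuclei and vascular endothelial-like cluster 7 too. In vascular endothelial-like cluster 1, smooth muscle- and lymphatic endothelial-like nuclei they were more often higher. There Hsp90ab1 had ratios of 0.22 (-0.14 to 0.56), 0.63 (-0.07 to 1.34) and 0.73 (0.01 to 1.55). Of 15 such genes, 13 were measurable in cardiomyocyte-like nuclei for MI-NS over Sham-NS, with 7 higher and 6 lower, where 60.1% of all genes were higher. The median log2 ratio was 0.00 against 0.13 over all genes there. In fibroblast-like nuclei 4 of 11 were higher against 58.4% of all genes, with a median of -0.11. In macrophage-like nuclei 2 of 7 were higher against 54.1%, with a median of -0.37. In pericyte-like nuclei 0 of 6 were higher against 41.8%, and the median was -0.68. Hspa1a, the most inducible of them, had at most 4 UMIs in any class and library. Hsp90aa1 was at 117 CPM in MI-DAPA, 134 in MI-NS and 130 in Sham-NS in cardiomyocyte-like nuclei.

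Fos, the leading partner of AP-1, was highest in MI-NS in cardiomyocyte-, fibroblast- and macrophage-like nuclei, the 3 classes where it was measurable. Over all 9 classes, low counts included, it was higher in MI-NS than Sham-NS in 7 and lower in 2. In cardiomyocyte-like nuclei it was at 6.23 CPM (3.95 to 9.35) in MI-DAPA and 30.8 (23.8 to 39.2) in MI-NS, against 2.50 (1.20 to 4.61) in Sham-NS. Its log2 ratio was 3.56 (2.65 to 4.75) for MI-NS over Sham-NS and -2.28 (-3.06 to -1.60) for MI-DAPA over MI-NS. In macrophage-like nuclei Fos was at 61.5 CPM (33.6 to 103) in MI-DAPA and 101 (77.5 to 130) in MI-NS, against 24.5 (13.1 to 42.0) in Sham-NS. The ratios there were 2.00 (1.16 to 3.03) for MI-NS over Sham-NS and -0.68 (-1.67 to 0.14) for MI-DAPA over MI-NS, the second within counting error. In fibroblast-like nuclei it was at 15.5 CPM (9.05 to 24.9) in MI-DAPA and 31.5 (23.8 to 40.9) in MI-NS, against 7.53 (3.61 to 13.8) in Sham-NS, with ratios of 2.01 (1.08 to 3.20) and -0.99 (-1.90 to -0.22). MI-NS was the highest library in all 3, and the MI-DAPA and Sham-NS intervals overlapped in all 3. For MI-DAPA over Sham-NS Fos was measurable in 0 classes, so no ratio is given. Fosb, a close relative of Fos, had 24 UMIs over the 9 classes, 5 of them in MI-DAPA, 16 in MI-NS and 3 in Sham-NS, too few for a ratio in any class.

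**Figure D2:**
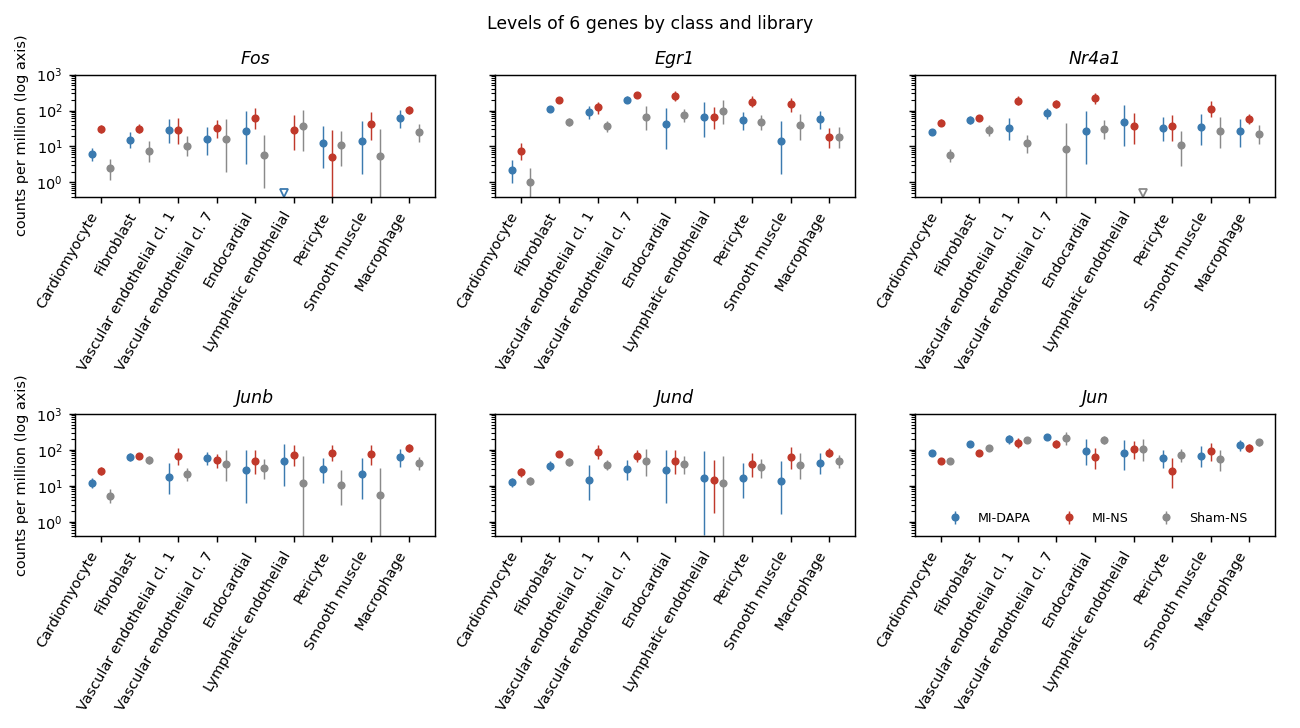
Each panel gives the level of 1 gene in CPM on a log axis for 9 classes, with MI-DAPA, MI-NS and Sham-NS from left to right, 95% Poisson intervals as lines and open triangles for 0 UMIs. In cardiomyocyte-like nuclei Fos is at 6.23 CPM in MI-DAPA, 30.8 in MI-NS and 2.50 in Sham-NS, while Jun is at 84.0 CPM in MI-DAPA, 49.0 in MI-NS and 50.3 in Sham-NS.

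Egr1, which drives growth factor and matrix genes, was higher in MI-NS than Sham-NS in all 5 classes where it was measurable, with log2 ratios of 1.75 to 2.01. Over all 9 classes, low counts included, it was higher in 7 and lower in 2. In fibroblast-like nuclei it was at 108 CPM (89.2 to 129) in MI-DAPA and 196 (176 to 217) in MI-NS, against 48.2 (37.1 to 61.5) in Sham-NS. The ratio was 2.01 (1.63 to 2.43) for MI-NS over Sham-NS and -0.86 (-1.17 to -0.55) for MI-DAPA over MI-NS, and MI-DAPA lay between the others beyond counting error. In pericyte-like nuclei Egr1 was at 53.6 CPM (28.5 to 91.6) in MI-DAPA and 176 (122 to 246) in MI-NS, against 48.7 (28.8 to 76.9) in Sham-NS. In endocardial-like nuclei it was at 40.9 CPM (8.44 to 120) in MI-DAPA and 250.35 (179 to 341) in MI-NS, against 74.1 (48.4 to 109) in Sham-NS. Smooth muscle-like nuclei held 2 UMIs of it in MI-DAPA, 21 in MI-NS and 7 in Sham-NS, or 13.8, 148 and 38.7 CPM. In these 3 small classes MI-NS was the highest library, and MI-DAPA and Sham-NS overlapped.

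Egr1 in vascular endothelial-like cluster 7 was at 202 CPM (159 to 253) in MI-DAPA and 267 (220.5 to 320.0) in MI-NS, against 66.3 (28.6 to 131) in Sham-NS, and cluster 1 had 90.1 (58.3 to 133), 122 (81.8 to 175) and 36.6 (25.9 to 50.2). Here MI-DAPA lay nearer to MI-NS, with MI-DAPA over MI-NS ratios of -0.40 (-0.84 to 0.03) and -0.43 (-1.27 to 0.38) that include 0. In cluster 1 the MI-NS over Sham-NS ratio turned to -2.05 in nuclei thinned to 1000 UMIs. This kept only 35 of 340 MI-NS and 93 of 1548 Sham-NS nuclei, those with at least 1000 UMIs. In MI-NS the order of Egr1 levels over classes was vascular endothelial-like cluster 7, endocardial-, fibroblast-, pericyte- and smooth muscle-like nuclei, vascular endothelial-like cluster 1, lymphatic endothelial-like nuclei at 66.1 CPM (30.2 to 125), macrophage-like nuclei at 17.9 CPM (8.95 to 32.1) and cardiomyocyte-like nuclei at 7.46 CPM (4.27 to 12.1). As ratios of neighbours in this order, 6 of 8 had an interval that included 0. Lymphatic endothelial- over macrophage-like nuclei had 1.90 (0.43 to 3.29) and macrophage- over cardiomyocyte-like nuclei 1.28 (0.01 to 2.46). RNA free in the droplets was not measured. Macrophage-like nuclei were the 1 class in which Egr1 was highest in MI-DAPA, at 57.1 CPM (30.4 to 97.6) against 18.9 (9.05 to 34.7) in Sham-NS, from 13 and 10 UMIs.

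Nr4a1, induced by adrenergic signals and by inflammation, had the highest MI-NS over Sham-NS ratio of any measurable member. In vascular endothelial-like cluster 1 it was at 32.5 CPM (14.8 to 61.6) in MI-DAPA and 189.5 (138 to 254) in MI-NS, against 12.5 (6.66 to 21.4) in Sham-NS. The ratios were 3.88 (3.01 to 4.94) for MI-NS over Sham-NS and -2.48 (-3.76 to -1.50) for MI-DAPA over MI-NS. In cluster 7 it had 31 UMIs in MI-DAPA, 67 in MI-NS and 1 in Sham-NS, or 83.5, 154 and 8.29 CPM, with ratios of 3.64 (1.69 to 9.54) and -0.87 (-1.55 to -0.25). In cardiomyocyte-like nuclei it was at 25.5 CPM (20.6 to 31.2) in MI-DAPA and 46.2 (37.5 to 56.2) in MI-NS, against 5.76 (3.65 to 8.64) in Sham-NS, with ratios of 2.98 (2.34 to 3.73) and -0.86 (-1.28 to -0.44). MI-DAPA there was above Sham-NS, with a ratio of 2.12 (1.47 to 2.87). Endocardial-like nuclei held 2, 35 and 11 UMIs of Nr4a1, or 27.3, 219 and 31.4 CPM, in MI-DAPA, MI-NS and Sham-NS. In fibroblast-like nuclei the gene was at 55.7 CPM (42.6 to 71.6) in MI-DAPA and 62.4 (51.3 to 75.2) in MI-NS, against 27.8 (19.6 to 38.4) in Sham-NS, and the 2 infarct libraries overlapped. Nr4a3, its relative, had 32 UMIs over the 9 classes, 9 in MI-DAPA, 11 in MI-NS and 12 in Sham-NS.

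Junb and Jund, the AP-1 partners that often restrain growth, were higher in MI-NS than Sham-NS in each class where they were measurable, 3 for Junb and 4 for Jund. The interval of the ratio lay above 0 in 2 of these for Junb and in 4 for Jund. Junb in cardiomyocyte-like nuclei was at 12.2 CPM (8.89 to 16.3) in MI-DAPA and 26.1 (19.7 to 33.9) in MI-NS, against 5.26 (3.26 to 8.04) in Sham-NS, a log2 ratio of 2.29 (1.57 to 3.11) for MI-NS over Sham-NS and of -1.10 (-1.70 to -0.51) for MI-DAPA over MI-NS. In macrophage-like nuclei Junb was at 61.5 CPM (33.6 to 103) in MI-DAPA and 114 (88.9 to 144) in MI-NS, against 43.4 (27.5 to 65.1) in Sham-NS. In fibroblast-like nuclei it was at 64.0, 65.2 and 52.7 CPM in MI-DAPA, MI-NS and Sham-NS, with overlapping intervals. Pericyte-like nuclei had 7, 16 and 4 UMIs of Junb in that order.

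Jund was at 12.7 CPM (9.36 to 16.9) in MI-DAPA and 23.8 (17.7 to 31.3) in MI-NS, against 13.8 (10.4 to 17.9) in Sham-NS in cardiomyocyte-like nuclei. In fibroblast-like nuclei it was at 35.6 CPM (25.3 to 48.7) in MI-DAPA and 75.3 (63.1 to 89.2) in MI-NS, against 45.2 (34.5 to 58.1) in Sham-NS. Its MI-DAPA over MI-NS ratios were -0.90 (-1.50 to -0.30), -1.07 (-1.63 to -0.56) and -0.86 (-2.06 to 0.07) in cardiomyocyte-, fibroblast- and macrophage-like nuclei. MI-DAPA and Sham-NS overlapped for Jund in each of these classes. Whether counting used strand is not given in the sources used here, and Prdx2 overlaps 351 bases at the end of Junb (chr8:84974484-84978718) and the antisense gene Gm11175 overlaps 919 bases of Jund (chr8:70698949-70700616), so reads there could belong to either gene. Gm11175 was assigned 5 UMIs over the 9 classes. Prdx2 was assigned 334 UMIs, at 14.9 CPM in MI-DAPA, 23.6 in MI-NS and 13.01 in Sham-NS over the 9 classes, the same order as Junb at 27.7, 55.7 and 19.8 CPM, and its part in the Junb values was not tested.

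Jun, the founding partner of AP-1, was not higher in MI-NS than Sham-NS in any class where it was measurable. In cardiomyocyte-like nuclei it was at 84.0 CPM (74.9 to 93.9) in MI-DAPA and 49.0 (40.1 to 59.3) in MI-NS, against 50.3 (43.6 to 57.8) in Sham-NS. In fibroblast-like nuclei it was at 148 CPM (126 to 173) in MI-DAPA and 81.0 (68.3 to 95.3) in MI-NS, against 111 (94.2 to 131) in Sham-NS. MI-DAPA was the highest library in both classes. The MI-DAPA over MI-NS ratio was 0.77 (0.45 to 1.11) in cardiomyocyte-like and 0.87 (0.54 to 1.20) in fibroblast-like nuclei, and in all 5 classes where Jun was measurable it was above 0. In vascular endothelial-like cluster 7 Jun was at 229 CPM (183 to 283) in MI-DAPA and 149.5 (115 to 191) in MI-NS, against 207 (134 to 306) in Sham-NS, a ratio of 0.61 (0.13 to 1.10) for MI-DAPA over MI-NS, which turned to -0.075 when the immediate early genes were kept in the clustering.

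The MI-NS over Sham-NS ratios of Jun were below 0 in all 6 classes where it was measurable, from -1.53 (-2.71 to -0.62) in endocardial-like to -0.04 (-0.39 to 0.31) in cardiomyocyte-like nuclei. Endocardial-like nuclei had 7 UMIs of Jun in MI-DAPA, 10 in MI-NS and 66 in Sham-NS, or 95.5, 62.6 and 188 CPM. Jun made up 56.3% of the members' UMIs in MI-DAPA, 25.4% in MI-NS and 60.4% in Sham-NS in cardiomyocyte-like nuclei, shares of UMIs that are not scaled to gene length. The antisense gene Junos overlaps 689 bases of Jun (chr4:95049034-95052222) and was assigned 43 UMIs against 1908 for Jun.

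**Figure D3:**
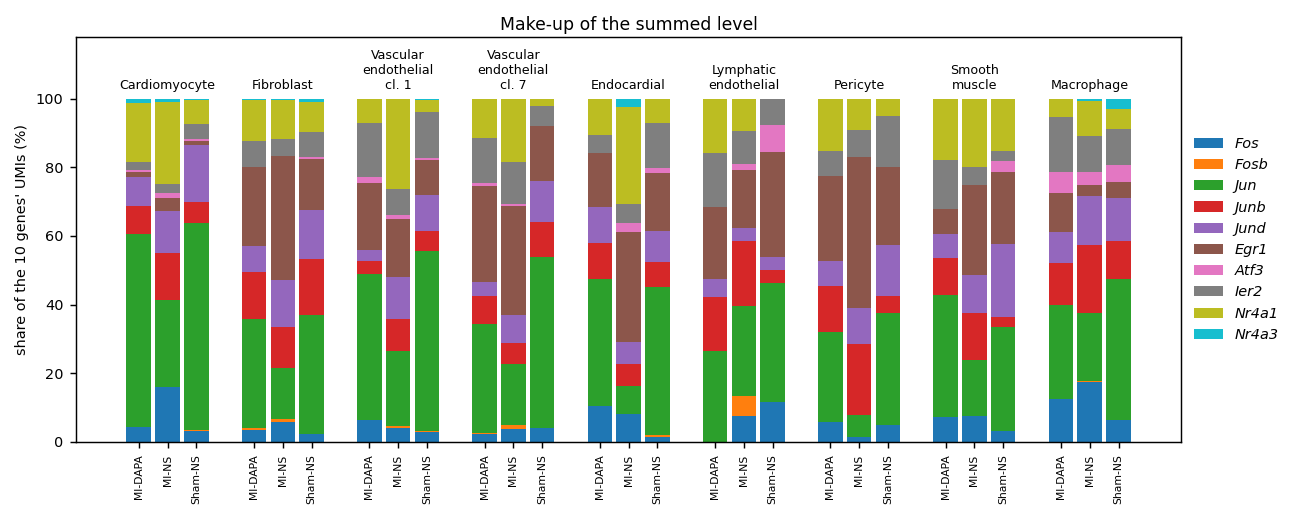
Stacked bars give the share of the 10 genes' UMIs that each gene took, in percent, for each class, with MI-DAPA, MI-NS and Sham-NS from left to right. In cardiomyocyte-like nuclei Jun takes 56.3% in MI-DAPA, 25.4% in MI-NS and 60.4% in Sham-NS.

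Ier2 stayed within counting error where it was measurable, and Atf3 was too low to compare. Ier2 in fibroblast-like nuclei was at 34.7 CPM (24.6 to 47.7) in MI-DAPA and 26.4 (19.4 to 35.1) in MI-NS, against 24.1 (16.5 to 34.0) in Sham-NS. Its ratio was 0.13 (-0.54 to 0.83) for MI-NS over Sham-NS and 0.40 (-0.26 to 1.04) for MI-DAPA over MI-NS, and in each class where Ier2 was measurable the interval included 0. In vascular endothelial-like cluster 7 it had 35 UMIs in MI-DAPA, 45 in MI-NS and 3 in Sham-NS, or 94.3, 104 and 24.9 CPM, which fell just short of the 50 UMIs for a ratio over Sham-NS. Atf3 had 61 UMIs over the 9 classes, 30 of them in macrophage-like nuclei, where it was at 30.7 CPM (12.4 to 63.3) in MI-DAPA and 21.2 (11.3 to 36.2) in MI-NS, against 18.9 (9.05 to 34.7) in Sham-NS. Pericyte-like nuclei had 0 UMIs of Atf3 in all 3 libraries, where 3 counts would have been 12.4 CPM in MI-DAPA, 15.6 in MI-NS and 8.11 in Sham-NS.

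Counted over genes, the members are read against all measurable genes of the class. For MI-NS over Sham-NS, 4 of 5 measurable members were higher in cardiomyocyte-like nuclei, against 60.1% of all genes, and 3 were at least 2-fold higher, against 7.23%. Their median log2 ratio was 2.29 beside 0.13 over all genes, but 0.23 in nuclei thinned to 500 UMIs. Only Jun had at least 200 UMIs there, and its own ratio was -0.036. In fibroblast-like nuclei 6 of 7 were higher against 58.4% and 3 at least 2-fold against 8.84%, with a median of 0.73 beside 0.11. In macrophage-like nuclei 4 of 5 were higher against 54.1% and 2 at least 2-fold against 5.24%, with a median of 0.75 beside 0.05, but 0.030 at clustering resolution 2.0. In vascular endothelial-like cluster 1, 4 of 5 were higher against 53.2% and 3 at least 2-fold against 5.28%. The median was 1.22 beside 0.05, but -0.14 in nuclei thinned to 500 UMIs. Only Jun had at least 200 UMIs in cluster 1, and its own ratio was -0.27. In cluster 7, 2 of 3 were higher against 48.8%, both at least 2-fold against 6.3%. Endocardial-like nuclei had 1 of 2 higher against 46.2%, at least 2-fold against 5.32%, and pericyte-like nuclei 1 of 1 against 41.8%, at least 2-fold against 2.97%. In every class where it was measurable, Jun was the member that was not higher.

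For MI-DAPA over MI-NS, 4 of 5 measurable members were lower in cardiomyocyte-like nuclei, against 65% of all genes, and 2 were at least 2-fold lower, against 4.5%. The median was -0.90 beside -0.16 over all genes, but 0.91 in nuclei thinned to 500 UMIs. Jun alone had at least 200 UMIs there, and its own ratio was 0.77. In fibroblast-like nuclei 5 of 7 were lower against 54.2% and 1 at least 2-fold against 3.31%, with a median of -0.16 beside -0.05, but 0.46 in nuclei thinned to 1000 UMIs. In macrophage-like nuclei 3 of 5 were lower against 48.7% and 0 at least 2-fold against 4.3%, with a median of -0.68 beside 0.02, but 0.95 at clustering resolution 2.0. In vascular endothelial-like cluster 1, 2 of 3 were lower against 43.4% and 1 at least 2-fold against 1.93%, and in cluster 7, 3 of 4 were lower against 46.6% and 0 at least 2-fold against 3.26%.

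**Figure D4:**
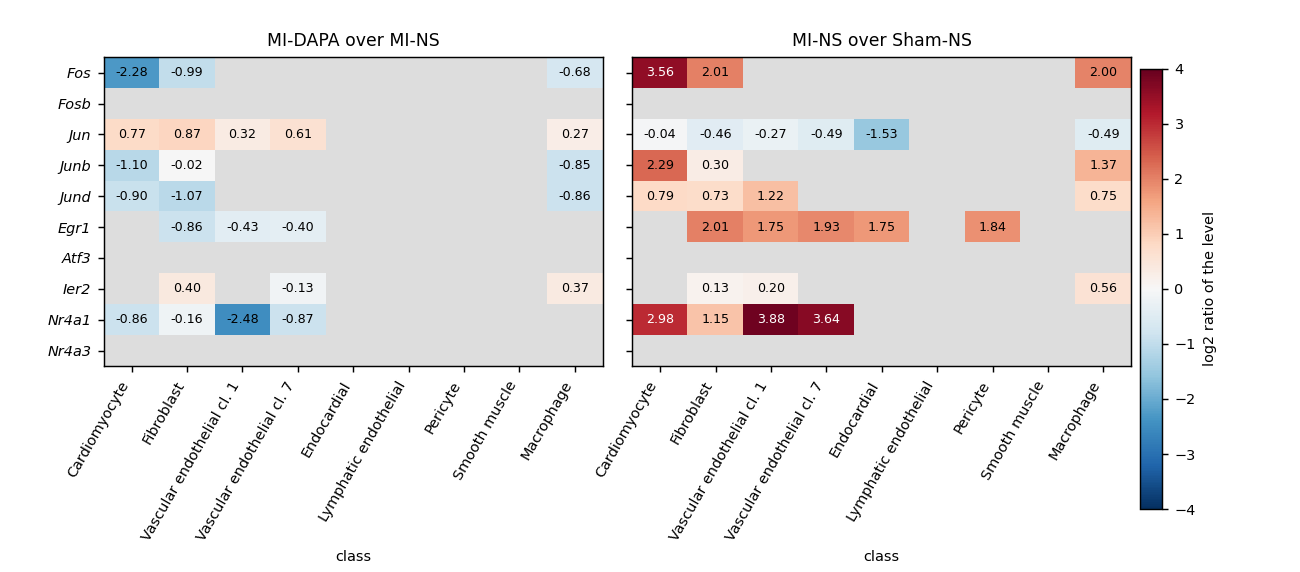
Colours and numbers give the log2 ratio of the level of each gene in each class, on the left for MI-DAPA over MI-NS and on the right for MI-NS over Sham-NS, and grey cells had fewer than 50 UMIs over both libraries. In cardiomyocyte-like nuclei Jun has 0.77 on the left and -0.04 on the right, and Fos has -2.28 and 3.56.

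The make-up of the fibroblast-like class differed between libraries, so the members are also given within its clusters. Cluster 4, with Dpep1 and Abca8a among its leading genes, held 160 nuclei in MI-DAPA, 26 in MI-NS and 1621 in Sham-NS, cluster 3, led by Comp and Ltbp2, held 527, 1359 and 29, and cluster 6, led by Vcan and Col5a3, held 656, 651 and 111. Within cluster 6 the summed level was 497 CPM in MI-DAPA, 785 in MI-NS and 653 in Sham-NS, a log2 ratio of 0.26 (-0.11 to 0.66) for MI-NS over Sham-NS and of -0.66 (-0.89 to -0.44) for MI-DAPA over MI-NS. Within cluster 3 it was 423, 435 and 399 CPM, and neither ratio left 0 by more than counting error. Within cluster 4 MI-DAPA was the highest library, at 492 CPM against 459 in MI-NS, from 8 UMIs, and 293 in Sham-NS. The ratio there was 0.03 (-0.98 to 1.38) for MI-DAPA over MI-NS, 0.73 (-0.57 to 1.64) for MI-NS over Sham-NS and 0.76 (0.31 to 1.17) for MI-DAPA over Sham-NS. Egr1 in cluster 6 was at 101 CPM in MI-DAPA, 309 in MI-NS and 80.4 in Sham-NS, and in cluster 3 at 116, 146 and 133 CPM, the last from 3 UMIs. Jun was higher in MI-DAPA than in MI-NS within clusters 6 and 3, at 176 against 111 CPM in cluster 6 and 120 against 66.1 CPM in cluster 3.

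In cardiomyocyte-like nuclei the summed level was highest in MI-NS within both clusters. Cluster 0, led by Ces1d, had 147 CPM in MI-DAPA, 213 in MI-NS and 76.0 in Sham-NS, and cluster 5, led by Myh7 and Ankrd1, had 150.4, 190 and 133 CPM. The MI-NS over Sham-NS ratio was 1.50 (1.05 to 1.90) in cluster 0 and 0.51 (0.14 to 0.91) in cluster 5. Fos in cluster 5 was at 4.77 CPM in MI-DAPA, 29.9 in MI-NS and 3.85 in Sham-NS, and Nr4a1 at 29.8, 48.0 and 7.69 CPM.

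Other immediate early genes were read from a list of 48, which holds feedback phosphatases, Klf factors and the matricellular genes Ccn1 and Ccn2. In cardiomyocyte-like nuclei 24 of 27 measurable genes were higher in MI-NS than Sham-NS (60.1% of all genes were). At least 2-fold higher were 13, against 7.23% of all genes, and the median was 0.99. In MI-DAPA 26 of 29 were lower than in MI-NS (65% of all genes). At least 2-fold lower were 13, against 4.5% of all genes, and the median was -0.96. Ccn2, a target of stretch and TGF-beta signals, was at 20.6 CPM in MI-DAPA, 100.3 in MI-NS and 6.01 in Sham-NS there, and Btg2, a brake on division, at 21.7, 69.5 and 9.52 CPM. Ccn1, a matrix signal of the same family as Ccn2, had a ratio of 2.49 (2.14 to 2.87) for MI-NS over Sham-NS. Cebpb, a factor of inflammatory and growth signalling, had a ratio of -1.74 (-2.48 to -1.06) for MI-DAPA over MI-NS. Klf9, Ier3 and Klf4 had the lowest MI-NS over Sham-NS ratios, from -0.16 to -0.01, and Gadd45b, Klf4 and Klf9 the highest MI-DAPA over MI-NS ratios, at 0.99, 0.87 and 0.00.

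In fibroblast-like nuclei the list was more evenly split, with 22 of 32 higher in MI-NS than Sham-NS, against 58.4% of all genes, and 17 of 33 lower in MI-DAPA than in MI-NS, against 54.2%. Ccn1 was at 78.6 CPM in MI-DAPA, 248 in MI-NS and 16.6 in Sham-NS, ratios of 3.87 (3.29 to 4.59) for MI-NS over Sham-NS and -1.65 (-2.01 to -1.32) for MI-DAPA over MI-NS. Ccn2 and Egr3 had MI-NS over Sham-NS ratios of 2.97 and 1.86, and Sik1, Klf9 and Phlda1 of -1.11, -0.93 and -0.58. For MI-DAPA over MI-NS, Btg2 and Btg1 had -2.02 and -1.16, and Errfi1, a brake on EGF receptor signalling, Gadd45g and Ier3 had 0.88, 0.74 and 0.70. In macrophage-like nuclei 13 of 20 were higher in MI-NS than Sham-NS against 54.1% of all genes, led by Ccn2, Cebpb and Plk2 with 2.84, 2.13 and 1.10, and 14 of 19 were lower in MI-DAPA than in MI-NS against 48.7%, led by Plk2, Dusp1 and Cebpb with -1.40, -1.14 and -1.04.

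Ccn2 in smooth muscle-like nuclei, the only gene of that list measurable there, was at 89.8 CPM in MI-DAPA, 826 in MI-NS and 93.9 in Sham-NS, ratios of 3.10 (2.40 to 3.96) for MI-NS over Sham-NS and -3.15 (-4.15 to -2.37) for MI-DAPA over MI-NS. In pericyte-like nuclei it was at 41.2 CPM in MI-DAPA, 213 in MI-NS and 103 in Sham-NS, and in endocardial-like nuclei at 68.2, 369 and 117 CPM. Vascular endothelial-like cluster 7 had 7, 65 and 2 UMIs of Ccn2 in that order, or 18.9, 149.5 and 16.6 CPM. In cluster 1 it had the highest MI-NS over Sham-NS ratio of the list, 2.88 (2.06 to 3.77), followed by Ccn1 with 1.76 and Ier5 with 1.38, and Rhob had the lowest, -0.83 (-1.57 to -0.22).

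Genes that carry signals to these promoters had medians nearer to 0. Of 24 upstream kinases and factors, 18 of 21 measurable ones were higher in MI-NS than Sham-NS in cardiomyocyte-like nuclei against 60.1% of all genes. At least 2-fold higher were 0, against 7.23%, and the median was 0.29. In MI-DAPA against MI-NS 15 of 21 were lower against 65% of all genes, with a median of -0.20. In fibroblast-like nuclei the medians were 0.21 and -0.05. Of 18 other AP-1 and ATF partners, 6 of 12 were higher in MI-NS than Sham-NS in cardiomyocyte-like nuclei against 60.1% of all genes, with a median of 0.04, and 10 of 13 were lower in MI-DAPA than in MI-NS against 65%, with a median of -0.45. In fibroblast-like nuclei 11 of 14 were higher against 58.4%, with a median of 0.41, and 11 of 14 lower against 54.2%, with a median of -0.18.

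How often members were seen in the same nucleus was read after thinning each nucleus to 500 UMIs, which left out none. Nuclei with UMIs of at least 2 members were 18 of 555 in MI-DAPA (3.24%, Clopper-Pearson 1.93 to 5.08), 33 of 597 in MI-NS (5.53%, 3.84 to 7.68) and 3 of 179 in Sham-NS (1.68%, 0.347 to 4.82) in vascular endothelial-like cluster 7. In fibroblast-like nuclei they were 27 of 1343 in MI-DAPA (2.01%, 1.33 to 2.91), 68 of 2036 in MI-NS (3.34%, 2.60 to 4.22) and 17 of 1761 in Sham-NS (0.965%, 0.563 to 1.54). MI-NS also had the highest share in cardiomyocyte-, endocardial- and smooth muscle-like nuclei and in vascular endothelial-like cluster 1. It did not in pericyte-like (1.42% in MI-DAPA, 0.37% in MI-NS, 0.55% in Sham-NS), macrophage-like (2.77%, 2.73%, 1.98%) or lymphatic endothelial-like nuclei (1.59%, 1.06%, 2.5%). These shares rest on few nuclei. Of 27 fibroblast-like MI-NS nuclei with a Fos UMI, 14 also had another member (51.9%, 31.9 to 71.3), against 369 of the 2009 without Fos (18.4%, 16.7 to 20.1). In macrophage-like MI-NS nuclei it was 10 of 34 with Fos (29.4%, 15.1 to 47.5) against 161 of 810 without (19.9%, 17.2 to 22.8), with overlapping intervals, and in macrophage-like MI-DAPA nuclei 1 of 10 with Fos. In cardiomyocyte-like MI-NS nuclei 0 of 10 with Fos had another member, which allows up to 30.8%. The most UMIs of members in 1 nucleus were 18, in a fibroblast-like MI-NS nucleus.

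The genes most like each member in pattern were found by Pearson correlation of log2(CPM + 10) over the 27 points of a class in a library, among genes with at least 200 UMIs. The points share 3 libraries and differ in depth, so this is a description. Egr1 was most like Eva1b (r = 0.87), Ier2 most like Fam219a (0.87), Junb most like Tgif1 (0.84), Jun most like Cmpk2 (0.81), Fos most like Eif5a (0.78), Jund most like Stt3a (0.77) and Nr4a1 most like Sfrp2 (0.75). Fosb, Atf3 and Nr4a3 had too few UMIs for the likeness to be read.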

How the data were processed

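Single-nucleus 3' libraries were made from mouse heart, 1 per group. The authors deposited UMI counts per gene and barcode, made with Cell Ranger 6.0.1 per the file headers. Per the submitters' processing notes the build was mm10 and Seurat was used. Use of strand and of intronic reads is not given in the sources used here. Every kept nucleus had at least 500 UMIs.

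Nuclei with at least 300 genes and at most 10% mitochondrial UMIs were kept. Scrublet called 1 doublet and so did not work. Clusters whose nuclei had doublet scores with a median above 0.1 were set aside as mixed (9.88% of MI-DAPA, 11.7% of MI-NS and 15.2% of Sham-NS nuclei). Counts per 10000 UMIs were log-transformed, and 2000 variable genes per library, without the members, other immediate early and heat shock genes, gave 30 components, 15 neighbours and Leiden clusters (scanpy 1.11.5, leidenalg 0.10.2, resolution 1.0). A name needed 3 markers at least 2-fold above other nuclei, and the erythroid name also its own marker among the leading genes, a condition set after haemoglobin UMIs were seen in other clusters. The comparison of vascular clusters by number was also set after the clusters were seen.

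UMIs were summed per class and library. The ratio step was tested on simulated counts. Members and lists were chosen with earlier results of these data known. Named genes were the 10 members in each class, the 3 highest and 3 lowest other immediate early genes per class (examples are given), the genes most like each member, and Arntl, Per1, Per2, Dbp, Hspa1a and Hsp90aa1. The members given within clusters were chosen after their values were seen. With 1 library per group no test was made. Alternatives were TMM factors (edgeR), rescaling, thinning, other filters, other clusterings and names, and within-cluster means. Gene coordinates are GRCm38, GENCODE vM21.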

Additional observations from a re-analysis of the deposited data

How the results depend on the processing

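All values here are log2 ratios. For the summed level, 257 alternative values stayed within the interval of the value reported. Sums whose interval included 0 counted as well, 0 of 94 changed sign for MI-NS over Sham-NS, 3 of 93 for MI-DAPA over MI-NS and 13 of 92 for MI-DAPA over Sham-NS. For the 20 sums whose interval left 0, 205 of 206 kept their sign. For single measurable members with such an interval, 437 of 441 values kept it. For MI-NS over Sham-NS, the summed level was 0.96 (thinned to 500 UMIs), 0.54 (thinned to 1000) and 0.35 (within clusters) in fibroblast-like, 1.36 and 0.36 (thinned to 500 and 1000) in endocardial-like, 1.18 (thinned to 1000) in lymphatic endothelial-like, 0.98 (resolution 2.0) in smooth muscle-like and 0.25 (resolution 2.0) in macrophage-like nuclei. For MI-DAPA over MI-NS it was -0.39 (class by marker level) and 0.25 (thinned to 1000, a change of sign) in fibroblast-like nuclei, -0.27 and -0.56 in vascular endothelial-like clusters 1 and 7 (clustered with the immediate early genes), -0.35 (class by marker level) and -0.79 (thinned to 500) in smooth muscle-like and 0.10 (resolution 2.0) and 0.06 (class by marker level) in macrophage-like nuclei, both changes of sign. For MI-DAPA over Sham-NS it was 1.12 (thinned to 500) and 0.56 (within clusters) in cardiomyocyte-like, 0.79 (thinned to 1000) and 0.12 (within clusters) in fibroblast-like nuclei, 0.69 in vascular endothelial-like cluster 1 (clustered with those genes), -0.55 (thinned to 1000) in pericyte-like and 0.74 (class by marker level) in macrophage-like nuclei. Medians of measurable members moved too. For MI-NS over Sham-NS they were 0.23 (thinned to 500) and -0.036 (at least 200 UMIs) in cardiomyocyte-like nuclei, -0.14 and -0.27 with these settings in vascular endothelial-like cluster 1, and 1.51 (mixed clusters kept) and 0.030 (resolution 2.0) in macrophage-like nuclei. For MI-DAPA over MI-NS they were 0.91, -0.18 and 0.77 (thinned to 500, thinned to 1000, at least 200 UMIs) in cardiomyocyte-like, -0.66 (class by marker level) and 0.46 (thinned to 1000) in fibroblast-like and 0.95 (resolution 2.0) in macrophage-like nuclei. The values given here for at least 200 UMIs are the ratio of Jun alone, the only member left. Single members changed sign 4 times, Jun in fibroblast-like nuclei for MI-DAPA over Sham-NS (-0.11, within clusters), Egr1 in vascular endothelial-like cluster 1 for MI-NS over Sham-NS (-2.05, thinned to 1000) and Jun in cluster 7 for MI-DAPA over MI-NS (-0.075, clustered with those genes, and -0.0013, thinned to 1000). The cause was not tested. Leaving out the nucleus with most member UMIs was chosen after seeing the data. Some alternatives gave no value in classes with too few nuclei. Thinning to 1000 UMIs used only nuclei with at least 1000 UMIs. No paired analysis was possible because each group had 1 library.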

Other observations

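Mesothelial-like nuclei, of the layer that covers the heart, numbered 14 in MI-DAPA, 454 in MI-NS and 14 in Sham-NS, too few in 2 libraries to compare. Their summed level of the 10 genes was 703 CPM (641 to 770) in MI-NS. In the clusters left out as mixed, the summed level was 301 CPM (269 to 335) in MI-DAPA, 516 (483 to 551) in MI-NS, and Sham-NS had 229 (210.2 to 249.6).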
